A study of Mus musculus with 446 samples.

Results

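The collagen chain genes are the mouse genes whose symbol is Col followed by a type number, the letter a and a chain number. Each encodes 1 α chain of a collagen. In liver and muscle 44 of 47643 genes had such a symbol, and in adipose tissue 7 of the 2728 complete genes of the table. Symbols were matched from Ensembl gene IDs through GENCODE M21 (GRCm38). The genes were described across abdominal adipose tissue, liver and skeletal muscle of male mice of the Diversity Outbred stock, where the genome of each animal is a different mosaic of the founder strains. The mice were 6 weeks old when housed and ate a control diet with 10 kcal% fat, the feed of all animals until then. After randomization 1 group stayed on it and the other was switched to a high-fat diet with 60 kcal% fat. Tissues were taken after 14 weeks. The 446 libraries came from 74 mice kept on the control diet and 75 given the high-fat diet. They comprised 73 control and 75 high-fat adipose libraries, and 74 control and 75 high-fat libraries each of liver and muscle. No animal has a genetic copy in the study, so differences between genomes enter the spread within each group. The labels do not say which muscle was taken, and each library came from a small piece of tissue.

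Collagens are matrix proteins of 3 α chains wound into a triple helix. Types I, III and V form the banded fibrils of connective tissue, and type IV forms the sheet of basement membranes beneath epithelia and around adipocytes, muscle fibres and capillaries. Type VI forms beaded microfilaments, the FACIT chains sit on fibril surfaces, and types XV and XVIII (the multiplexins) lie at the basement membrane. In adipose tissue and liver, fibrillar collagens are best known as products of fibroblasts and stellate cells during fibrosis. In muscle they make up the endomysium, the perimysium and the junction with tendon.

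Values are TPM, an abundance corrected for gene length and library total, scaled further between libraries of a tissue by a trimmed mean over protein-coding genes. Each table was scaled alone, so levels are not compared between tissues. TPM keep no depth, so the depth behind a value is unknown. Differences are high-fat minus control of log2(scaled TPM + 1), which understates the change of low genes. The liver and muscle libraries of mouse 80 went against their labels and were left out, leaving 74 high-fat libraries of each. In 6 of the remaining mice the liver matched the muscle of another number better than its own. Diet differences, and their comparison between tissues, are named without these mice where a call changed. Low scale factors, under 1/3 of the tissue median, marked 11 control and 7 high-fat adipose libraries, 14 and 12 of liver, and 2 and 9 of muscle. Each tissue's defining genes were at high levels, such as a median control level of 29115 scaled TPM of Alb in liver. Genes of another tissue were high in some libraries, and their source was not tested: the 5 skeletal muscle fibre genes summed to up to 4855 scaled TPM in a liver library, and the 4 hepatocyte genes to up to 5277 in a muscle library.

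The tissues differed in which chains made up most of the collagen mRNA. In liver a single chain dominated: Col18a1, whose C-terminal fragment is endostatin, held 68.98% of the summed medians of the 44 chains. Its level ran from 114.6 to 246 scaled TPM in control mice with a median of 180, and from 89.7 to 223 with a median of 158 in high-fat mice. Col14a1 and Col27a1, a fibril-surface chain and a fibrillar chain, followed at 5.72% and 4.60%. Col14a1 ran from 4.34 to 21.4 in control mice with a median of 13.9, and Col5a3 from 0.446 to 14.8 with a median of 3.86. The classic fibrillar chains were low in liver, with control medians of 8.86 scaled TPM for Col3a1, 2.45 for Col1a2 and 0.900 for Col1a1.

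In muscle Col3a1, the chain of type III fibrils, held 32.9% of the summed medians. It was followed by Col1a2 at 13.4% and the basement membrane chain Col4a1 at 8.62%. The control median of Col3a1 was 171 scaled TPM (61.02 to 427) and its high-fat median 194 (75.9 to 399). In muscle the control medians were 70.2 scaled TPM for Col1a2, 43.4 for Col4a1, 34.9 for Col1a1 and 28.7 for Col4a2. The 3 principal type VI chains lay close together, at 26.05 for Col6a1, 25.2 for Col6a2 and 19.4 for Col6a3.

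The adipose table held only 7 chains. Col6a1 (28.02% of their summed medians), Col6a2 (25.3%) and Col5a3 (22.4%), a type V chain, led them, with control medians of 204, 194 and 226 scaled TPM. Col1a1 and Col18a1 followed at 112.1 and 92.8 scaled TPM, while Col26a1 and Col20a1 stayed at 2.81 and 2.04. Col1a2, Col3a1, Col6a3 and all type IV chains were not analysed in adipose tissue.

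A filter on low values, which asked for 1 scaled TPM in a number of libraries equal to 0.7 of the smaller diet group, passed 7 adipose, 17 liver and 29 muscle chains. The plot of levels by tissue shows these chains. The other 27 chains in liver had medians of at most 0.773 scaled TPM in either diet, and 8 of them (Col2a1, Col6a4, Col9a1, Col9a2, Col11a1, Col19a1, Col22a1 and Col28a1) were listed at 0 in the median library of both diets. The 15 chains below the filter in muscle were Col2a1, Col4a3, Col4a6, Col6a4, Col6a5, the 3 type IX chains, Col10a1, Col13a1, Col17a1, Col25a1, Col26a1, Col27a1 and Col28a1. The highest median among them was that of Col4a3, at 0.859 scaled TPM in control mice.

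**Figure D1:**
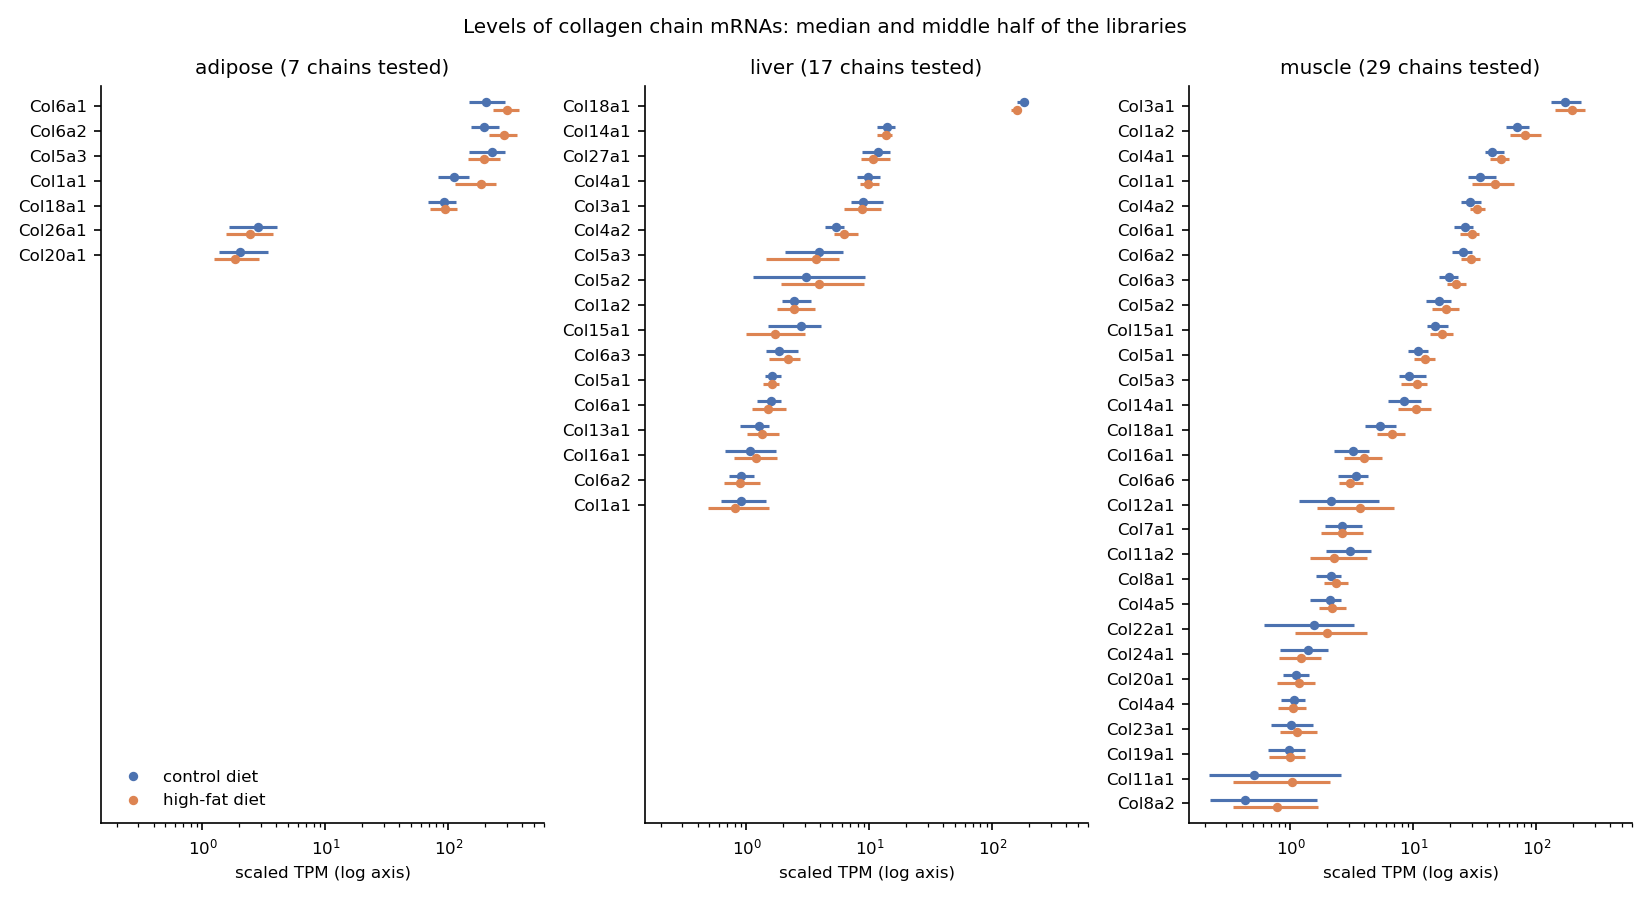
Levels of the tested collagen chains in each tissue, ordered by level. The horizontal axis is scaled TPM on a log scale, points are medians and bars run from the lower to the upper quartile of the mice of 1 diet (blue control, orange high-fat). Col18a1 stands alone in liver at 180 and 158 scaled TPM, while in muscle the chains descend in small steps from Col3a1.

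In adipose tissue, Col1a1 and both type VI chains were higher on the high-fat diet. Col1a1, the major chain of type I fibrils, rose from 121.9 ± 54.6 scaled TPM (SD, n = 73) to 197 ± 112.8 (SD, n = 75). Col6a1, a chain of the type VI microfilaments, rose from 231 ± 100.8 to 316 ± 115.05, and the median of its partner Col6a2 rose from 194 to 281. Col5a3, Col18a1, Col20a1 and Col26a1 did not pass the test. These 3 of 7 chains compare with 45.6% of all 2226 adipose genes tested that were called in either direction, 22.9% higher and 22.7% lower. With TPM as deposited the 3 calls held, all 7 chains had a positive difference, the median of all adipose genes moved to 0.205, and 94.7% of calls were higher against 50.2% with scaling.

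Single mice overlapped widely. Col1a1 lay between 38.7 and 302 scaled TPM in control mice (median 112.1) and between 46.1 and 529 in high-fat mice (median 183). Of the 75 high-fat mice, 56 lay above the control median of Col1a1, 63 above that of Col6a1 and 61 above that of Col6a2. The highest Col6a1 and Col6a2 values of all, 613 and 580 scaled TPM, were in control mice, so the groups were shifted and not separated, as the plot of single mice shows. On the log2 scale the difference of Col1a1 was 0.59 ± 0.12 (SE, adjusted p = 1.26e-05, limma with Benjamini-Hochberg adjustment over all genes tested). That of Col6a1 was 0.47 ± 0.10 (adjusted p = 2.16e-05) and that of Col6a2 0.42 ± 0.10 (adjusted p = 0.000132). Col5a3 differed by -0.10 (95% interval -0.33 to 0.13), Col18a1 by 0.03 (-0.13 to 0.19), Col20a1 by -0.09 (-0.29 to 0.10) and Col26a1 by -0.15 (-0.38 to 0.09). The interval of Col18a1 lies below the whole interval of Col6a2, from 0.23 to 0.61, and the pair was not tested against each other.

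Markers of other cell types moved between the diets in the same libraries. Of 3 macrophage markers in the adipose table, Cd68 and Adgre1 were higher, by 1.56 and 1.18 on the log2 scale, and Cd163 differed by -0.13 (adjusted p = 0.171). Their summed level ran from 57.8 to 628 scaled TPM in control mice with a median of 114.02, and from 78.6 to 1046 with a median of 277 in high-fat mice. All 3 adipocyte markers were lower (Retn by -1.28, Slc2a4 by -0.73 and Pparg by -0.48), with a summed median of 1796 (484 to 4027) against 841 (176 to 3047). Dcn, the 1 fibroblast marker in the table, was higher by 0.16. In bulk tissue, fewer cells of a type and less RNA per cell cannot be told apart, and the part of these markers in the differences of the chains was not tested.

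**Figure D2:**
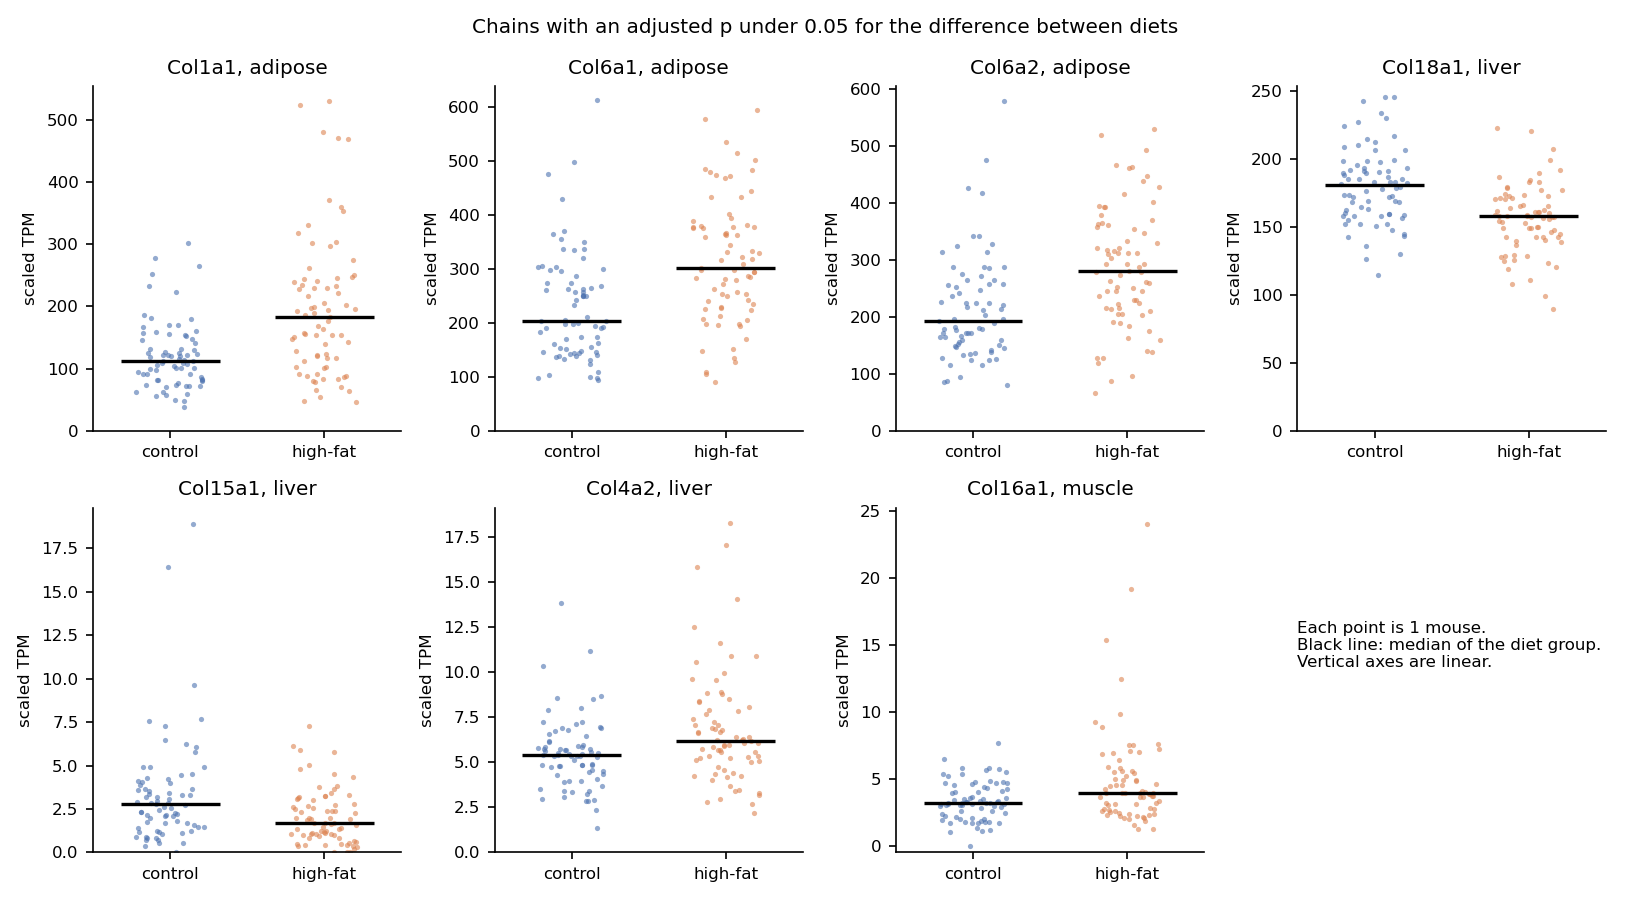
The 7 chains and tissues whose difference between diets passed the test, 1 panel each, with scaled TPM on a linear vertical axis, 1 point per mouse and a black line at the median of each diet. In each panel the groups overlap: in Col1a1 of adipose tissue the medians are 112.1 and 183 scaled TPM, and the ranges are 38.7 to 302 and 46.1 to 529.

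In liver, both multiplexin chains were lower on the high-fat diet and Col4a2 was higher. Col18a1 fell from 180 ± 28.03 scaled TPM (SD, n = 74) to 156 ± 25.2 (SD, n = 74), and only 10 of 74 high-fat mice lay above the control median. Col15a1, its relative in the same family, fell from 3.35 ± 3.08 to 2.08 ± 1.58, with 20 of 74 above. Col4a2, which with Col4a1 builds the common basement membrane molecule, rose from 5.52 ± 2.00 to 6.89 ± 3.18, with 49 of 74 above. The 7 fibrillar and 3 type VI chains had 0 calls by limma and 0 unadjusted p under 0.05. These 3 of 17 chains compare with 9.87% of all 12376 liver genes tested, 4.54% higher and 5.32% lower.

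The log2 difference was -0.21 ± 0.04 for Col18a1 (SE, limma, adjusted p = 2.38e-05), -0.44 ± 0.12 for Col15a1 (adjusted p = 0.0100) and 0.24 ± 0.08 for Col4a2 (adjusted p = 0.0328). Col15a1 reached 18.9 scaled TPM in 1 control mouse and at most 7.28 in high-fat mice, and 1 control and 3 high-fat mice were listed at 0. Values of Col4a2 ran from 1.34 to 13.8 (median 5.39) in control and from 2.17 to 18.3 (median 6.20) in high-fat mice, so the ranges overlapped over nearly their whole length. Its partner Col4a1 differed by 0.04 (-0.09 to 0.17), with medians of 9.76 and 9.75 scaled TPM. Within libraries, the mean log2 ratio of Col4a2 to Col4a1 was -0.81 ± 0.46 (SD) in control and -0.61 ± 0.44 in high-fat mice. In 49 of 74 high-fat mice the ratio exceeded the control median, and the difference of 0.20 ± 0.07 (SE) missed the threshold of a two-sided permutation test adjusted over the 12 ratios of partner chains (p = 0.00759, adjusted p = 0.0911). The ratios were chosen after the values were seen.

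With TPM as deposited, without scaling, none of these 3 liver chains passed the test (adjusted p = 0.278 for Col15a1 and 1.00 for the others), 14 of 17 chains were negative and 18.0% of calls were higher against 46.03% with scaling. The directions of the 3 chains held, and without a filter on low values Col4a2 had an adjusted p of 0.0839. Of the hepatocyte markers, Alb, Apoa1 and Ttr were lower, by -0.20, -0.17 and -0.20, and Serpina1a differed by -0.01. Their summed median was 41241 scaled TPM in control (28159 to 75722) and 37542 in high-fat mice (22531 to 60727). Among 7 tested fibroblast and stellate markers Pdgfrb was lower, by -0.19, and among 5 macrophage markers Mpeg1 was lower, by -0.34. Of 2 tested adipocyte markers Pparg was higher, by 0.38 (adjusted p = 0.00862), from a median of 0.547 to 1.196 scaled TPM, and Adipoq, Plin1, Lep and Retn had medians of 0 on both diets. Of 6 endothelial markers 0 passed the test with limma and 1 had an unadjusted p under 0.05; their summed level ran from 33.7 to 60.3 in control and from 30.5 to 59.4 in high-fat mice. The part of these markers in the differences of the chains was not tested.

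No fibrillar chain of liver passed the test, and the intervals were wide. Col3a1 differed by -0.13 (-0.37 to 0.12), Col1a1 by -0.08 (-0.29 to 0.14) and Col1a2 by 0.01 (-0.18 to 0.21). Col5a2 differed by 0.14 (-0.29 to 0.58). Col5a2, a type V chain that sets fibril width, varied more than any other tested liver chain, from 0.258 to 51.3 scaled TPM in control mice (median 3.07) and from 0 to 50.9 in high-fat mice (median 3.90). It was at least 10 scaled TPM in 17 of 74 control and 18 of 74 high-fat mice, and at least 20 in 8 of each, so the high values fell about evenly on both diets.

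In muscle, 1 of 29 chains passed the test, beside 1.61% of all 13515 genes tested, 1.03% higher and 0.585% lower. Col16a1, a FACIT chain, rose from 3.37 ± 1.45 scaled TPM (SD, n = 74) to 4.95 ± 3.78 (SD, n = 74). The log2 difference was 0.35 ± 0.10 (SE, limma, adjusted p = 0.0437), and 48 of 74 high-fat mice lay above the control median. Control values ran from 0 to 7.70 with a median of 3.21, and high-fat values from 1.24 to 24.1 with a median of 3.94. The high-fat mean was drawn up by a few mice: 4 of 74 reached at least 10 scaled TPM, and no control mouse did. The call was lost under all 7 alternatives run, with adjusted p between 0.0631 and 0.287. Without the 6 libraries that held epidermal keratins, which are named further on, the difference was 0.31 (adjusted p = 0.104).

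Short of the threshold, 25 of the 29 muscle chains had a positive difference, against 6360 of 13515 genes, and 11 of 29 had an unadjusted p under 0.05, against 1695 genes. Many of these chains varied together across the same mice, such as Col1a1 with Col1a2 and Col6a1 with Col6a2 (r = 0.931 and 0.912, diet means removed). The counts of chains are therefore not of independent observations. The median difference of the 29 chains was 0.13, that of all genes -0.005. With TPM as deposited, 11 of the 29 were positive and their median was -0.03, while the median of all muscle genes moved to -0.15, so that the chains stood 0.13 above all genes there and 0.14 above with scaling. Of all muscle calls 63.8% were higher with scaling and 33.3% as deposited. Col6a2 came closest after Col16a1, with 0.20 ± 0.06 (SE, adjusted p = 0.0656) and 52 of 74 high-fat mice above the control median. Col6a3 differed by 0.18 (adjusted p = 0.135), Col6a1 by 0.16 (0.194) and Col14a1 by 0.26 (0.226). By structure, the 6 FACIT chains tested had a median difference of 0.28 and all were positive, the 4 type VI chains 0.17 with Col6a6 at -0.09, and the 4 type IV chains 0.12 with Col4a4 at -0.03. Among the 9 fibrillar chains the median was 0.15, and Col11a2 and Col24a1 were at -0.10 and -0.05. With TPM as deposited the direction turned for 14 of the 29 chains. There 4 of 6 FACIT, 1 of 4 type VI, 1 of 4 type IV and 1 of 9 fibrillar chains were positive.

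No cell type marker passed the diet test in muscle. Of 49 markers tested there, 0 passed with limma, and 9 higher and 3 lower ones had an unadjusted p under 0.05, among them 3 of 5 smooth muscle and pericyte, 2 of 5 macrophage, 2 of 8 fibroblast and 2 of 7 adipocyte markers higher, 2 of 5 muscle fibre markers and 1 adipocyte marker lower, and 0 of 5 tendon markers. The smooth muscle and pericyte list had a median difference of 0.20 and summed to a median of 198 scaled TPM in control and 234 in high-fat mice. The muscle fibre list had a median difference of -0.13. Single markers had differences as large as those of the chains and did not pass: Lep 1.03 (adjusted p = 0.0615), Fmod 0.46 (0.649) and Cd68 0.28 (0.353). The adipocyte list summed to a median of 397 scaled TPM in control (243 to 2144) and 433 in high-fat mice (211 to 1528), and the tendon list to 45.2 (8.18 to 387) and 72.5 (10.2 to 395). The adipocyte list includes Slc2a4, and which cells of the muscle piece gave the RNA of its markers was not tested. The part of these markers in the differences of the chains was not tested.

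**Figure D3:**
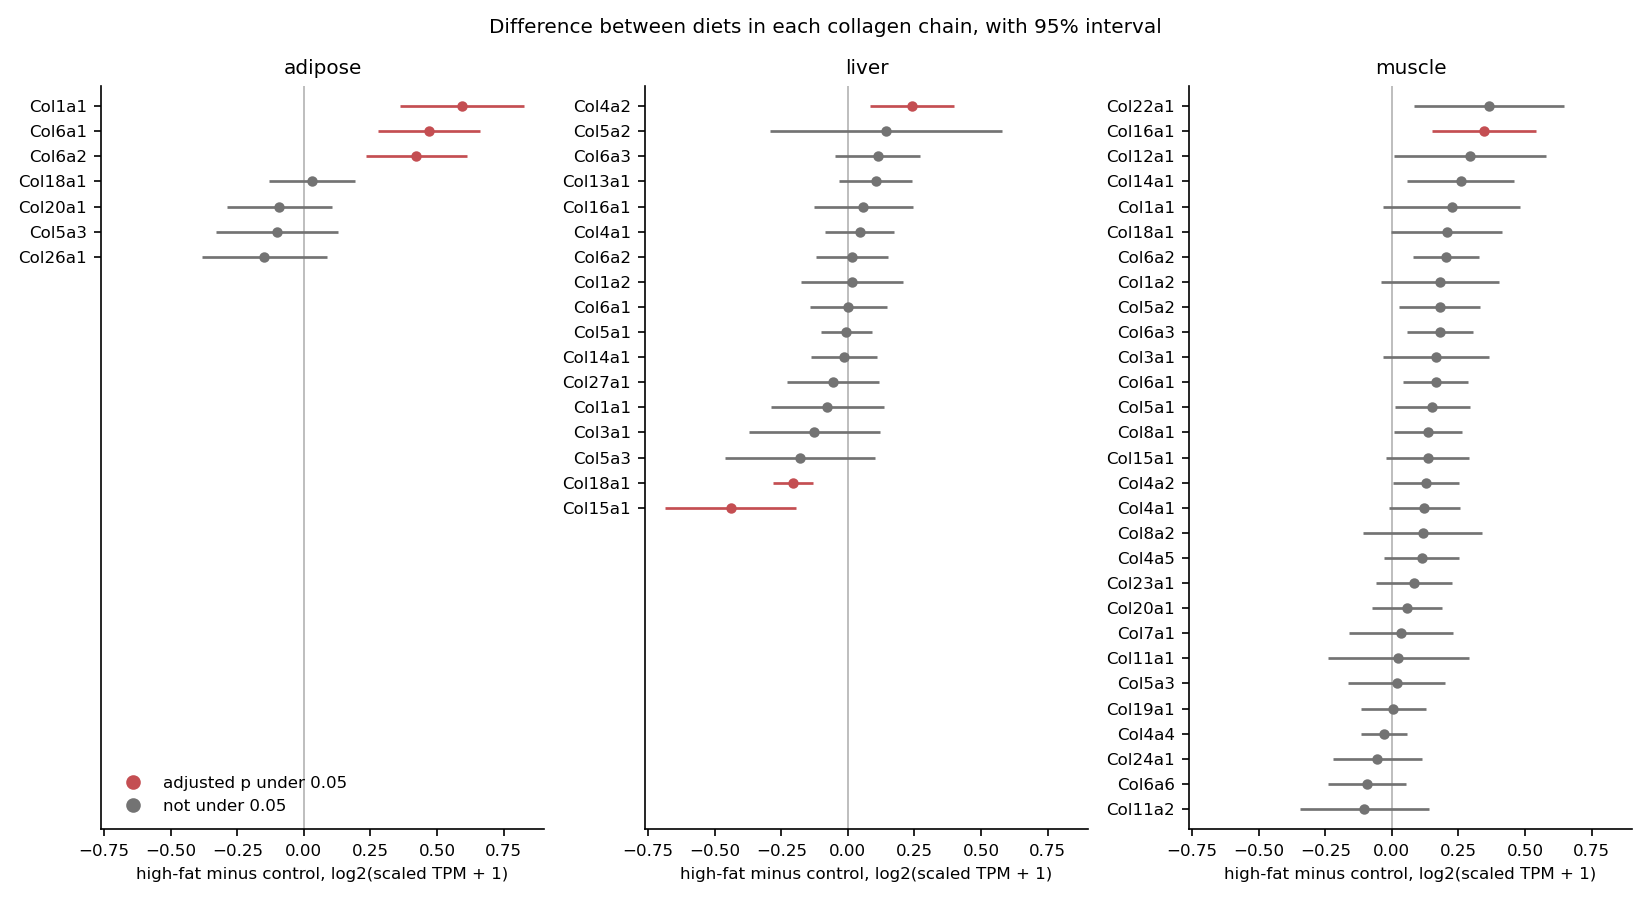
Difference between diets of every tested chain, with its 95% interval (horizontal axis, log2 of scaled TPM + 1; positive is higher on the high-fat diet), for adipose tissue (7 chains), liver (17) and muscle (29). Red marks an adjusted p under 0.05. In muscle 25 of 29 points lie right of 0 and 1 is red; with TPM as deposited 11 of 29 did and none passed.

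The effect of diet itself was compared between tissues as an interaction term of limma over genes tested in both. Libraries of 1 mouse were taken as independent in this fit, and adding the mouse as a block changed no call of a chain. Col1a1 and the type VI chains differed between adipose tissue and liver. Their effect was larger in adipose tissue by 0.67 ± 0.16 (SE, adjusted p = 0.000425) for Col1a1, 0.47 ± 0.12 (0.00117) for Col6a1 and 0.41 ± 0.12 (0.00438) for Col6a2. In liver the same chains differed by -0.08, 0.001 and 0.02, where the direction of the type VI chains turned under several alternatives. Col18a1 also differed, by 0.24 ± 0.09 (adjusted p = 0.0378), being flat in adipose tissue and lower in liver; this was lost without the libraries of low scale factor (adjusted p = 0.0930) and with TPM as deposited (0.281). These 4 of 5 chains compare with 26.5% of 1783 genes tested. Col5a3, the fifth, differed by 0.08 ± 0.18 (adjusted p = 0.779).

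Between liver and muscle both multiplexins differed in their response. The effect in liver minus that in muscle was -0.57 ± 0.15 (SE, adjusted p = 0.00799) for Col15a1 and -0.41 ± 0.11 (adjusted p = 0.0148) for Col18a1. In muscle alone Col15a1 had a difference of 0.13 and Col18a1 of 0.21, neither past the test. With TPM as deposited both calls were lost (adjusted p = 0.940 for each). With mouse 80 kept that of Col15a1 had an adjusted p of 0.0505, and without the 6 unmatched mice that of Col18a1 had 0.0580. These 2 of 15 chains compare with 3.26% of 10966 genes. Between adipose tissue and muscle, Col6a1 was the 1 chain of 6 called (0.31 ± 0.12 SE, adjusted p = 0.0378), beside 24.1% of 1929 genes, and it was lost without the libraries of low scale factor (adjusted p = 0.0752). Col1a1 differed there by 0.37 ± 0.18 (adjusted p = 0.116).

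The design text puts variability among mice at the centre of the study, so the spread of the chains was examined as well. No chain passed the test of spread between diets: limma on absolute deviations called 0 of 5 adipose, 0 of 7 liver and 0 of 14 muscle chains. The background was 2.38%, 0.0269% and 0.0348% of genes. The chain of smallest p was Col1a1 in adipose tissue, with SDs of 0.61 in control and 0.82 in high-fat mice on the log2 scale (p = 0.00972, adjusted p = 0.160). It was the 1 chain of these 26 with an unadjusted p under 0.05. Chains of lower mean were not tested for spread, among them 2 called for diet. On the log2 scale their SDs in control and high-fat mice were 0.52 and 0.68 (Col16a1, muscle) and 0.80 and 0.73 (Col15a1, liver).

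Within a tissue, several chains varied far more between mice than most genes of like level (within 0.5 on the log2 scale), as a description. In adipose tissue the SD of Col1a1 was 0.72, above 95.9% of such genes, and that of Col5a3 0.71, above 97.03%. In muscle Col1a1 (0.79) lay above 95.3% and Col12a1 (0.88) above 91.7%, and in liver Col5a2 (1.35) above 96.4%. The chain that dominated liver varied less than most such genes: Col18a1 had an SD of 0.23, with 16.2% of 290 genes of like level below it. Lower still by this share were Col5a1 in liver (SD 0.29, above 4.46%) and Col4a4 in muscle (SD 0.26, above 5.96%).

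Partner chains that wind into 1 molecule were next examined for whether they vary together from mouse to mouse. Correlations were computed within 1 tissue and 1 diet, 62 relations in all, with 100000 permutations each (two-sided, smallest possible p 1e-05) and adjustment over the 62. By Pearson's r 52 of 62 passed an adjusted p of 0.05. In adipose tissue Col6a1 and Col6a2 followed each other almost exactly, with r = 0.956 (Spearman's rho 0.951) in 73 control mice and 0.961 (0.949) in 75 high-fat mice (adjusted p = 1.88e-05 for each). Leaving out the 2 mice farthest from the median gave 0.949 and 0.955. Over all adipose genes tested, Col6a2 was the gene most like Col6a1.

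In muscle 4 of 6 pairs of partner chains had r above 0.8 on both diets. For Col1a1 and Col1a2 r was 0.940 in control and 0.927 in high-fat mice, for Col6a1 and Col6a2 0.894 and 0.930, for Col4a1 and Col4a2 0.856 and 0.827, and for Col5a1 and Col5a2 0.840 and 0.821. Spearman's rho lay between 0.787 and 0.911 for these pairs, r was between 0.788 and 0.927 without the 2 farthest mice, and the adjusted p of r was 1.88e-05 for each. Col6a1 and Col6a3 were at 0.728 and 0.703 in muscle (rho 0.754 and 0.687, 0.752 and 0.711 without the 2 farthest mice, adjusted p = 1.88e-05). Col8a1 and Col8a2, chains of short networks, were lower, at 0.528 and 0.396 (rho 0.512 and 0.466, 0.462 and 0.477 without the 2 farthest mice, adjusted p = 3.65e-05 and 0.000802), and Col8a2 held place 75 among the genes most like Col8a1. In liver the values were lower, at 0.655 and 0.572 for Col1a1 and Col1a2, 0.645 and 0.603 for Col6a1 and Col6a2, and 0.402 and 0.580 for Col4a1 and Col4a2 (adjusted p at most 0.000682; 0.334 to 0.674 without the 2 farthest mice). The difference between tissues was not tested. Most of these liver chains lay at a few scaled TPM, and the depth behind such values is unknown. Even so, among 12376 liver genes the gene most like Col1a1 was Col1a2, the gene most like Col6a1 was Col6a2 and the gene most like Col4a1 was Col4a2, as in muscle among 13515 genes. The reverse also held except for Col6a2 in liver, for which Col6a1 came in place 7.

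The liver pairs of lowest r were Col6a1 with Col6a3 and Col5a1 with Col5a2. For Col6a1 and Col6a3 r was 0.284 in control and 0.243 in high-fat mice (rho 0.311 and 0.369, 0.337 and 0.149 without the 2 farthest mice, adjusted p = 0.0181 and 0.0440), and Col6a3 held place 79 among the genes most like Col6a1. For Col5a1 and Col5a2 it was 0.119 in control mice (adjusted p = 0.330, rho 0.0203) and 0.263 in high-fat mice (adjusted p = 0.0292, rho 0.138 with adjusted p = 0.263). Without the 2 mice farthest from the median these became 0.00749 and 0.141, so the relation in high-fat mice rests on those 2 mice. In order of likeness to Col5a1, Col5a2 held place 3467 in liver and place 3 in muscle.

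The partner genes differ in how they lie to each other. Col4a1 and Col4a2 lie head to head on chromosome 8 on opposite strands, and their first 22 transcribed bases overlap, so each gene's upstream stretch lies inside the other gene. Col6a1 and Col6a2 lie on the same strand of chromosome 10, 85.2 kb apart. Col3a1 and Col5a2 are neighbours too, 24.6 kb apart on chromosome 1 on opposite strands, and Col1a1 and Col1a2 are on chromosomes 11 and 6. The 250 bases upstream of the starts are shown for the Col4 and Col6 pairs, which lie on 1 chromosome and whose second chain was the gene most like the first in every tissue tested, from RefSeq on GRCm38.p6, written 5′ to 3′ on the gene's strand. Capitals mark matches, on either strand, to GGGCGG (the GC box), CCAAT and TATAAA.
Col4a1, chr8:11312827-11313076, minus strand: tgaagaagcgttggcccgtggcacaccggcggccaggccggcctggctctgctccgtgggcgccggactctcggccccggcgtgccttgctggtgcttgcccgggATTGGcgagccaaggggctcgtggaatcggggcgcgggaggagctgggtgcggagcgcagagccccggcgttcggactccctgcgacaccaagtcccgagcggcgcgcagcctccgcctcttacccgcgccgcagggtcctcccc
Col4a2, chr8:11312555-11312804, plus strand: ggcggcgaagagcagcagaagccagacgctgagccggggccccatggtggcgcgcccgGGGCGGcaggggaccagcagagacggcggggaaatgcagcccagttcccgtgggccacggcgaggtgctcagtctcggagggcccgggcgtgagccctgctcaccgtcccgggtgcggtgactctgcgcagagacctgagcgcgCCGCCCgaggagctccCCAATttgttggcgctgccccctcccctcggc
Col6a1, chr10:76726045-76726294, minus strand: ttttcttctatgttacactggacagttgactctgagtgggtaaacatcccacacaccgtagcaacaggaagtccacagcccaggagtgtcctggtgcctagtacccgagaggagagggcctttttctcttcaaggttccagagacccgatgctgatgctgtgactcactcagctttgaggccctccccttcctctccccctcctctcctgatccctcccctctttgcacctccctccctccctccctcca
Col6a2, chr10:76623631-76623880, minus strand: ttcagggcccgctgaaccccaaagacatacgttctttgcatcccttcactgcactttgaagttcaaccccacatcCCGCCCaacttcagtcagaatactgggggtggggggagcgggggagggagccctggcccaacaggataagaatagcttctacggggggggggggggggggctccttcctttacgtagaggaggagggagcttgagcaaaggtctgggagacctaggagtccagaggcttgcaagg
Col6a2 second start, chr10:76623405-76623654, minus strand: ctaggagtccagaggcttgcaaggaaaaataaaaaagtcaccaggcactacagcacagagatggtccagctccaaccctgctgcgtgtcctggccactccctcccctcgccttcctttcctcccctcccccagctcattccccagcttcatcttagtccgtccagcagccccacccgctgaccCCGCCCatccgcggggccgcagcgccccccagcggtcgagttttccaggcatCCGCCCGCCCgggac
The windows of Col4a1 and Col4a2 each hold 1 CCAAT match, read as ATTGG in Col4a1, and that of Col4a2 holds 2 GC boxes. The window of Col6a1 holds none of the 3 motifs, while those of the 2 Col6a2 starts, 226 bases apart, hold 1 and 3 GC boxes, of which a pair overlap. So the Col6 pair, with the highest correlation in adipose tissue, shares none of these motifs in these windows, which says only that the letters are absent there. RefSeq windows were found for 35 of the 44 chains, and not for Col12a1, Col14a1, Col1a1, Col22a1, Col26a1, Col2a1, Col4a3, Col5a2 and Col9a3. Of the 38 windows of these 35 genes, 57.9% held a GC box, 34.2% CCAAT and 13.2% TATAAA, against 32.7%, 33.8% and 12.4% of 32851 windows of all genes. These shares are a description and were not tested.

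Chains of different structures were tied in some tissues and not in others. Col1a1 and Col6a1 varied together in adipose tissue (r = 0.737 in control and 0.714 in high-fat mice), in muscle (0.638 and 0.628) and in liver (0.428 and 0.530, adjusted p at most 0.000251). Col1a1 and Col4a1, the fibril and the basement membrane, were at -0.0359 in control muscle (adjusted p = 0.760) and 0.296 in high-fat muscle (adjusted p = 0.0145), and the difference between diets was not tested. Col4a1 and Col18a1, both of the basement membrane, were at 0.629 in muscle on each diet (adjusted p = 1.88e-05), but at 0.259 (adjusted p = 0.0326, rho 0.224 with adjusted p = 0.0673) and -0.186 (adjusted p = 0.128) in liver. Col1a1 and Col3a1, which share fibrils, were at 0.539 and 0.645 in liver and at 0.383 and 0.417 in muscle (adjusted p at most 0.00111). Over all pairs of tested chains with the mean of each diet removed, the median r was 0.262 over 21 adipose pairs, 0.0976 for liver and 0.141 over 406 muscle pairs.

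**Figure D4:**
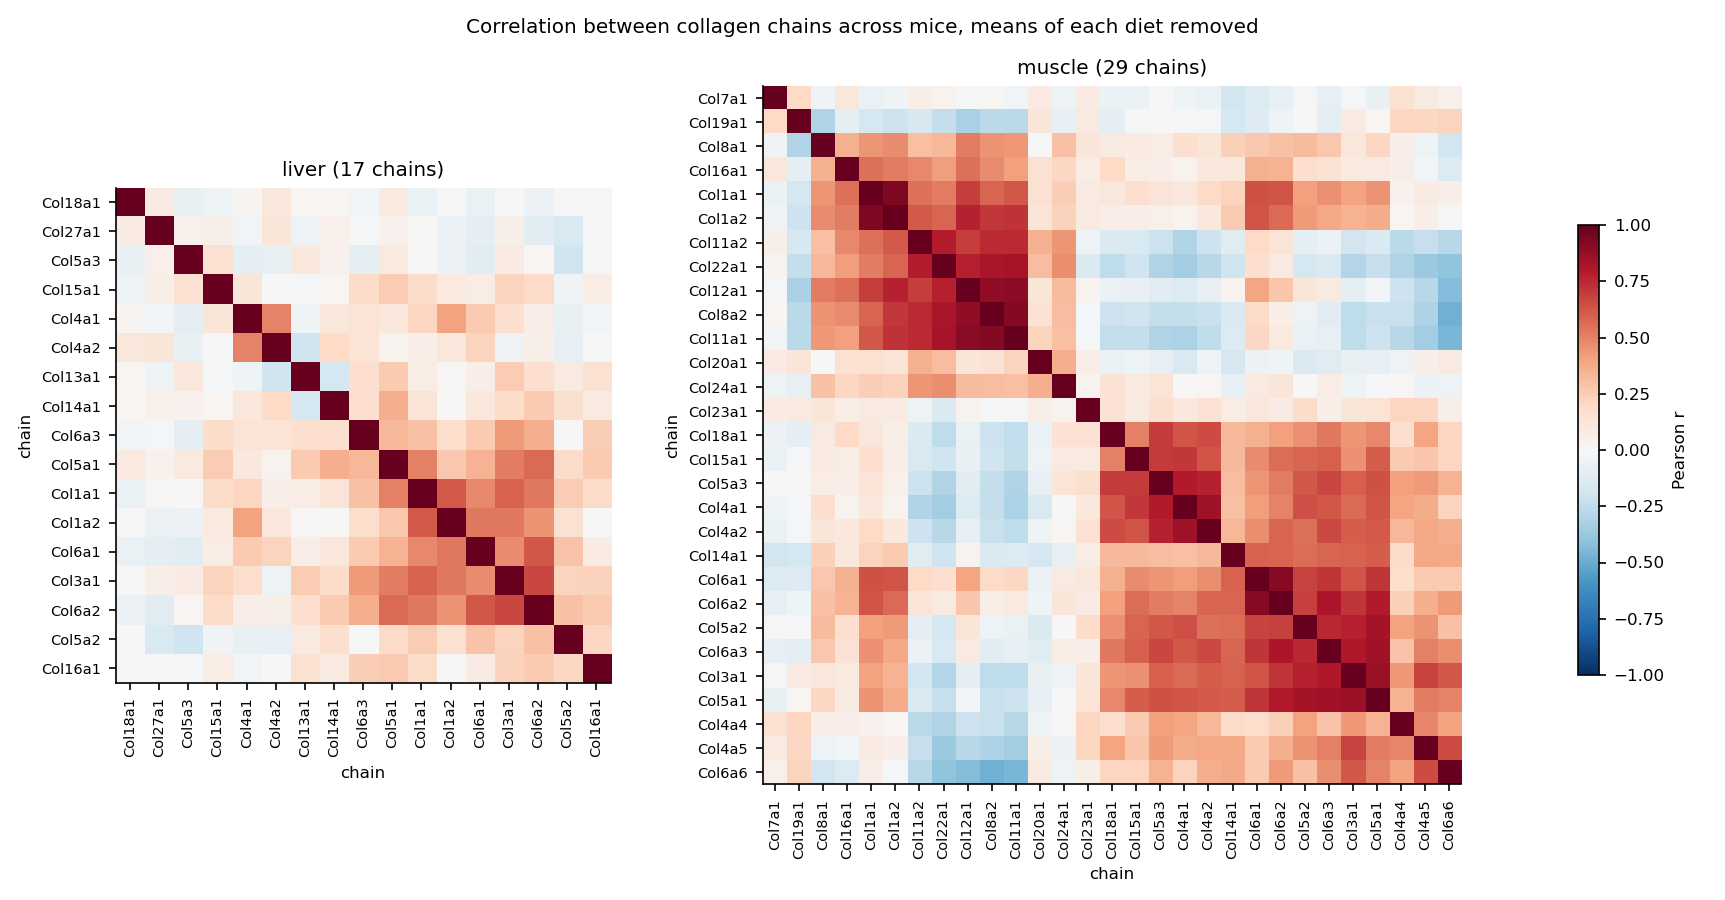
Pearson's r between every pair of tested chains across 74 control and 74 high-fat mice in liver (left, 17 chains) and muscle (right, 29 chains), with diet means removed, ordered by average-linkage clustering of the same values (red positive, blue negative). Muscle shows a block of Col8a2, Col11a1, Col11a2, Col12a1 and Col22a1 reaching r = 0.922. Col4a1 has high r there with Col4a2 (0.844) and Col5a3 (0.790), and Col3a1 with Col5a1 (0.867) and Col6a3 (0.797). In liver the highest r is 0.665, between Col3a1 and Col6a2.

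In muscle the chains are described in groups by the cell type markers they followed. The groups were drawn from the correlations given below, so the p-values do not test the grouping. The marker lists followed by the groups overlapped in part. Each chain was correlated with the mean log2 level of 9 marker lists over the 74 control and 74 high-fat mice, with diet means removed, in a family of 384 relations over the 3 tissues (10000 permutations, two-sided). The first group held Col11a1, Col8a2, Col12a1, Col22a1 and Col11a2, chains known from cartilage, cornea, tendon and the myotendinous junction. Their r with the tendon list (Tnmd, Scx, Thbs4, Mkx and Fmod) was 0.929, 0.906, 0.882, 0.861 and 0.761 (rho 0.757 to 0.922, 0.761 to 0.926 without the 2 farthest mice, adjusted p = 0.000369 each). The 10 genes most like Col11a1 included Cilp2 (r = 0.943), Chad (0.926), Tnmd (0.917), Comp (0.913) and Fmod (0.906), genes of tendon and cartilage matrix. These chains were low in most mice: Col11a1 ran from 0 to 9.83 scaled TPM in control mice (median 0.505) and from 0.0119 to 6.28 in high-fat mice (median 1.02), with at least 1 in 28 and 37 of 74.

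A second group held Col4a1, Col4a2, Col5a3 and Col18a1, which followed the adipocyte list (r = 0.68, 0.71, 0.78 and 0.75, rho 0.63 to 0.76, adjusted p = 0.000369 each, 0.65 to 0.76 without the 2 farthest mice). Col4a1 and Col4a2 also had r = 0.52 each with the endothelial list. All 4 were negative against the tendon list, at -0.41, -0.36, -0.37 and -0.31, and against the muscle fibre list, at -0.50, -0.45, -0.45 and -0.56. Col18a1 also had r = 0.45 with the hepatocyte list in muscle (0.366 without the 2 farthest mice). Another group, Col3a1, Col5a1, Col5a2, Col6a3, Col6a1, Col6a2 and Col14a1, had r of 0.55 to 0.78 with the fibroblast list, of 0.57 to 0.68 with the macrophage list and of 0.35 to 0.63 with the adipocyte list (adjusted p = 0.000369 each; without the 2 farthest mice 0.555 to 0.761 with the fibroblast list). Spearman's rho was 0.58 to 0.78 with the fibroblast list. The type I chains stood between groups, with r of 0.58 and 0.67 with the tendon list and 0.36 and 0.43 with the fibroblast list for Col1a1 and Col1a2. Col19a1, a FACIT chain made by muscle cells, had its highest r with the muscle fibre list (0.41, adjusted p = 0.000369), as had Col7a1 (0.0325, adjusted p = 0.779), and the gene most like it was Myh4, the fast fibre myosin (0.529). The markers share library, scaling and piece of tissue with the chains, and whether the makeup of the piece sets these values was not tested.

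**Figure D5:**
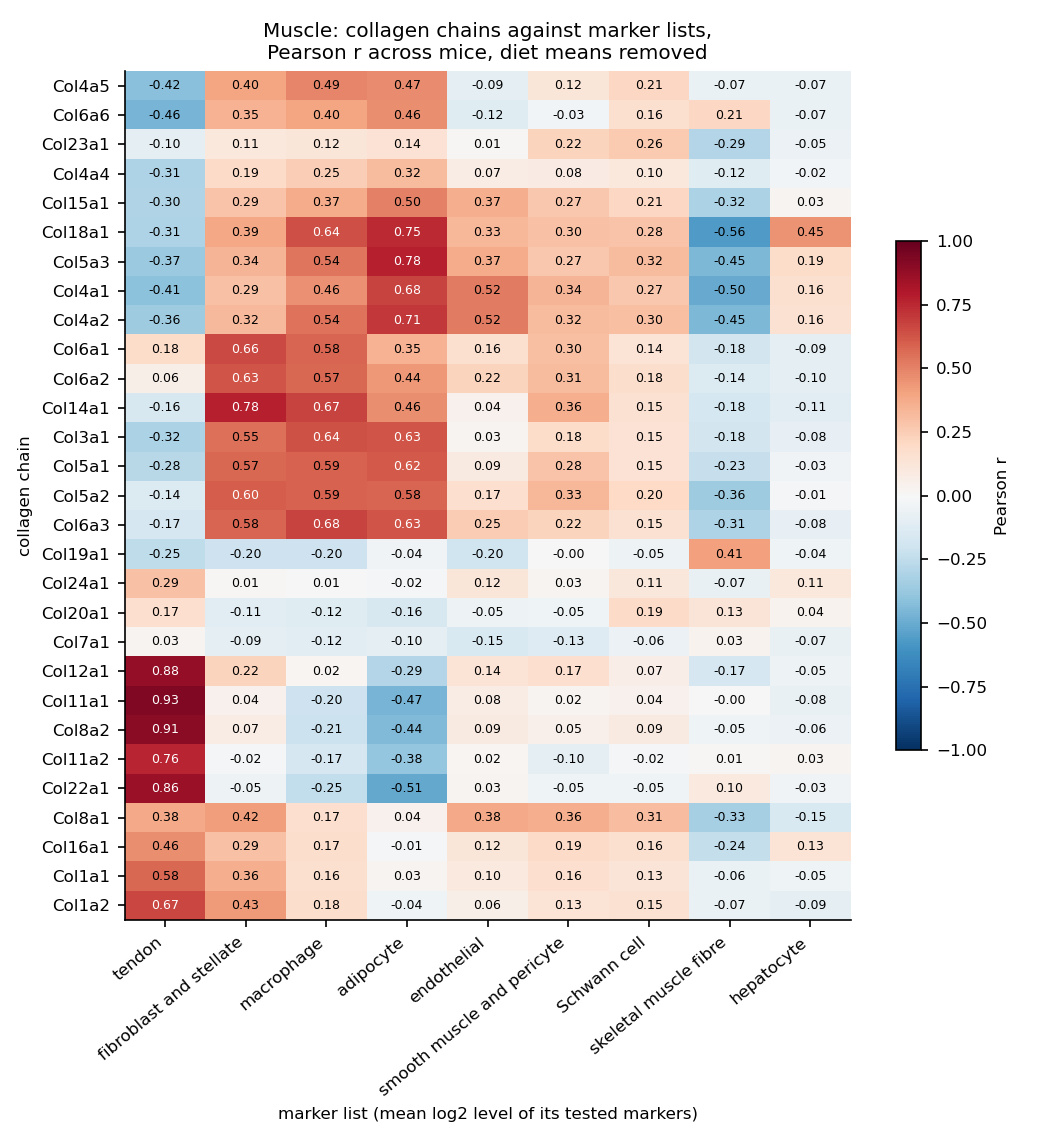
Pearson's r in muscle between each tested chain (rows) and the mean log2 level of each marker list (columns) across 74 control and 74 high-fat mice with diet means removed, from blue (negative) to red (positive). Col11a1, Col8a2 and Col12a1 reach 0.93, 0.91 and 0.88 with the tendon list, and Col5a3 and Col18a1 reach 0.78 and 0.75 with the adipocyte list.

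In adipose tissue the 3 chains that rose with diet also followed the macrophage markers within diets. The r of Col1a1, Col6a1 and Col6a2 with the macrophage list was 0.590, 0.634 and 0.627 (rho 0.598 to 0.636, 0.582 to 0.625 without the 2 farthest mice), and with the adipocyte list -0.512, -0.340 and -0.312 (rho -0.468 to -0.333, adjusted p at most 0.000674). Col5a3, which did not pass the diet test, was at 0.165 with the macrophage list (adjusted p = 0.0831) and 0.346 with the adipocyte list (adjusted p = 0.000369). In liver, Col3a1 and Col6a2 followed the smooth muscle and pericyte list (r = 0.643 and 0.733, rho 0.443 and 0.583) and the fibroblast and stellate list (0.609 and 0.683, rho 0.557 and 0.594; adjusted p = 0.000369 for each r). Col18a1 in liver had r = 0.106 with the hepatocyte list (adjusted p = 0.312), 0.259 with the endothelial list (adjusted p = 0.00299, rho 0.172 with adjusted p = 0.0710) and -0.139 with the fibroblast list (adjusted p = 0.157).

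The genes most like Col1a1 were listed in each tissue as a description. In muscle they were Col1a2 (r = 0.931), Loxl2 (0.711), a collagen crosslinking enzyme, Col12a1 (0.689), Pcolce (0.683), an enhancer of procollagen cleavage, and Tnc (0.649). In liver Col1a2 (0.615), Col3a1 (0.589), Dpt (0.554), Acta2 (0.538) and Col6a2 (0.527) led, and in adipose tissue Col6a2 (0.751), Col6a1 (0.714), Pfn1 (0.713), Tgfb1 (0.688) and Myo9b (0.684). Col1a2 was therefore the nearest gene in both tissues where it was measured. For Col4a1 the nearest genes in muscle were Col4a2 (0.844), Col5a3 (0.790), Tshr (0.724), Fads3 (0.723) and Pxdn (0.722), a peroxidase that crosslinks type IV collagen. In liver they were Col4a2 (0.499), Pard3 (0.406), Col1a2 (0.406), Snd1 (0.404) and Wdsub1 (0.394). None of the 10 genes most like Col18a1 in liver was a chain.

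The same chain in different tissues of 1 mouse was only loosely related. The 6 mice whose liver matched the muscle of another number better were kept, and these relations were not rerun without them. Of 26 such relations with diet means removed, 4 passed an adjusted p of 0.05 by Pearson's r (6 unadjusted) and 0 by Spearman's rho (5 unadjusted), by permutation. They were Col18a1 and Col5a3 between adipose tissue and muscle (r = 0.279, adjusted p = 0.0198, and 0.247, adjusted p = 0.0361), and Col15a1 and Col1a1 between liver and muscle (0.232 and 0.224, adjusted p = 0.0423 each). Without the 2 mice farthest from the median, r was 0.252, 0.213, 0.254 and 0.166. Col6a1 and Col6a2, so tightly tied to each other within adipose tissue and within muscle, had r of 0.118 and 0.115 between these 2 tissues (adjusted p = 0.401 each).

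A list of 65 genes, chosen with results of these data known, of collagen synthesis, processing, crosslinking, receptors and TGF-beta signalling was counted beside the chains. In adipose tissue 9 of 16 genes tested were higher and 0 lower, beside 45.6% of all genes called in either direction and 22.9% called higher. The 4 of smallest p were Mrc2, the endocytic collagen receptor (0.91, adjusted p = 2.73e-08), Loxl3, a crosslinking enzyme (0.37, adjusted p = 8.42e-07), Pcolce2 (0.67, adjusted p = 8.07e-06) and P4ha1, a subunit of prolyl 4-hydroxylase (0.34, adjusted p = 4.41e-05). Tgfb1, Tgfbr1 and Ccn2 were higher as well, by 0.36, 0.26 and 0.46. In liver 5 of 36 were higher and 0 lower, beside 9.87% of all liver genes called and 4.54% called higher. All 5 were in hydroxylation, folding or export. By limma they were P4ha1 (0.23, adjusted p = 0.0487), P4ha2 (0.31, adjusted p = 0.00928) and P4hb (0.15, adjusted p = 0.00157). The others were the collagen chaperone Serpinh1 (0.30, adjusted p = 0.00782) and the coat protein Sec23a (0.21, adjusted p = 9.17e-08).

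In muscle 5 of 55 genes of the list were higher and 0 lower, beside 1.61% of all genes called in either direction and 1.03% called higher. They were the collagen receptors Ddr1 (0.25, adjusted p = 0.00292), Itgb1 (0.17, adjusted p = 0.0199) and Itga11 (0.18, adjusted p = 0.0334), with Mrc2 (0.23, adjusted p = 0.0363) and Thbs2 (0.35, adjusted p = 0.0384). The hydroxylation genes (12 tested), the crosslinking genes (6) and the TGF-beta genes (11) had 0 calls in muscle with limma, and 3, 1 and 1 unadjusted p under 0.05. For Ddr1 61 of 74 and for Itgb1 57 of 74 high-fat mice lay above the control median. Calls of the list were not followed under the alternatives in any tissue. With TPM as deposited far fewer liver and muscle genes were called, and no chain call in these tissues held.

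Some chains that failed the filter were high in a few libraries. Col17a1, a hemidesmosome chain of skin, was at most 1.51 scaled TPM in all muscle libraries (median 0.228) but 6, where it lay between 5.21 and 58.4. These came from 1 control mouse (35.7) and 5 high-fat mice. They were the libraries with at least 10 scaled TPM of the epidermal keratin Krt5, which ran from 13.7 to 270 in them and reached at most 2.42 in the others. Krt14 and Krt10 ran from 28.1 to 506 and from 29.4 to 877 in the 6. Col7a1, the anchoring fibril chain of skin, was 1.87 to 7.57 in them, against a median of 2.62 and a maximum of 9.61 in the others, so it did not stand apart there. In liver Col22a1 was 20.4 scaled TPM in control mouse 22 and at most 0.288 in any other library. In muscle Col6a5 was 20.4 in high-fat mouse 99 and at most 3.10 elsewhere.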

How the data were processed

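RNA of abdominal adipose tissue, liver and muscle was sequenced as stranded total RNA on a MiSeq, per the labels' protocols. Tools named in the submitters' processing notes were Bowtie 1.2.2, Trim Galore 0.4.4 and FastQC. How reads were quantified, and on which build, is not given in the sources used here. Values are TPM as the authors deposited them: each liver and muscle column sums to 1e+06, so they are no counts and limma replaced a count test. The adipose table was held only in part (2728 complete gene lines).

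TPM were scaled within a tissue by a mean of log2 ratios to the median library, trimmed by 0.3 (ratios) and 0.05 (levels), over protein-coding genes of the nucleus (Lars2 left out) whose median TPM was at least 1. Genes with at least 1 scaled TPM in a number of libraries equal to 0.7 of the smaller diet group were tested on log2(scaled TPM + 1) with limma 3.58.1 (R 4.3.3, lmFit and eBayes with trend and robust settings). P-values were adjusted after Benjamini and Hochberg over all genes tested, with a threshold of 0.05. Tissues were compared by an interaction term, and spread by fitting each mouse's absolute distance to the median of its diet, where the mean was at least 5 scaled TPM. Correlations used permutation tests (Python 3.11.15, numpy 2.4.6, scipy 1.17.1). Scripts were tested on simulated data.

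All members were accounted for. Described with values were chains past a threshold, the 8 of highest median in each tissue, the 4 list genes of smallest p and the genes most like Col1a1 and Col4a1. Others named were chosen after their values were seen. The members and lists were chosen with earlier results of these data known.

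The mouse number in the labels pairs tissues of 1 animal. Liver and muscle of 1 number had a median correlation of 0.259 over 10966 genes, against -0.0015 for different numbers. P-values of diet differences set each difference against the spread between mice. The main interaction fit took libraries of 1 mouse in different tissues as independent. Alternatives were TPM as deposited, a pseudocount of 0.1, no filter, libraries of low scale factor or with a second number in the title left out, mouse 80 kept or left out in every tissue, and the replicate block.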

Additional observations from a re-analysis of the deposited data

Results flagged for a closer look

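The difference between diets differed between tissues for 5 chains, by the interaction term of limma. For liver minus muscle it was -0.57 for Col15a1 and -0.41 for Col18a1 on the log2 scale. For adipose tissue minus liver it was 0.67 for Col1a1, 0.47 for Col6a1, 0.41 for Col6a2 and 0.24 for Col18a1, and for adipose tissue minus muscle 0.31 for Col6a1.

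The 2 libraries of mouse 80 that were left out held chains at levels of the other tissue. Col3a1 was 205 scaled TPM in the library labelled liver, against 0 to 45.05 (median 8.81) in the other liver libraries, and Col18a1 was 8.32 there against 89.7 to 246. In the library labelled muscle Col18a1 was 315 scaled TPM, against 2.09 to 30.9 (median 5.82) in the others, and Col3a1 was 12.6 against 61.02 to 427. The labels give both libraries to 1 mouse on the high-fat diet.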

How the results depend on the processing

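Depth is not known from TPM, so the precision of low chains cannot be given, and the adipose table holds 7 of 44 chains. Without scaling (TPM as deposited) the median difference of all genes was 0.205 for adipose tissue, -0.045 for liver and -0.155 for muscle. Limma then called 14.3% of adipose genes in place of 45.6%, 0.493% of liver genes in place of 9.87% and 0.111% of muscle genes in place of 1.61%. Chains called became 0 in liver, 0 in muscle, 0 for liver minus muscle and 3 for adipose tissue minus muscle. Calls over all genes became 0.0638% for liver minus muscle (3.26% with scaling) and 6.34% for adipose tissue minus liver (26.5%). For spread they became 0% of adipose genes (2.38%), 0.0135% of liver genes (0.0269%) and 0% of muscle genes (0.0348%). The direction turned for 3 of 7 adipose, 6 of 17 liver and 14 of 29 muscle chains. Among chains with an unadjusted p under 0.05 or a called difference between tissues, those that turned were Col6a1 (-0.0432) and Col6a2 (-0.00867) in liver, and Col4a2 (-0.0743), Col5a1 (-0.0290), Col5a2 (-0.0109), Col6a1 (-0.0345), Col6a3 (-0.0149) and Col15a1 (-0.0628) in muscle. Correlations that turned were Col1a1 with Col4a1 in control muscle (0.424) and Col4a1 with Col18a1 in high-fat liver (0.932), and 62 of 62 pairs were called against 52. The cause was not tested.

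Under the other alternatives Col6a2 in liver was at -0.00922 (pseudocount 0.1), and Col6a1 in liver at -0.00429 without libraries with a second number and -0.0216 without the 6 unmatched mice. In high-fat liver, r was -0.0040 for Col4a1 with Col15a1 (pseudocount 0.1) and -0.0077 for Col1a1 with Col14a1 (mouse 80 kept). In muscle, 0 chains were called in each of the 7 alternatives. Muscle genes called were 0.301% with no filter and 1.05% with mouse 80 kept. Without libraries of low scale factor 15.65% of liver genes and 5.73% for liver minus muscle were called, and 0 chains for adipose tissue minus muscle. For liver minus muscle 1 chain was called with mouse 80 kept and 1 without the unmatched mice. Leaving out the unmatched mice, or the keratin libraries, was chosen after the data were seen. With the replicate block (mouse), which changed no call of a chain, 3.85% of genes were called for liver minus muscle, 27.6% for adipose tissue minus liver and 26.7% for adipose tissue minus muscle. Over all alternatives the chains so chosen, a part of those tested, gave 192 values, of which 163 kept direction and side of the threshold, 18 lost the call and 11 turned. A chain without a call counted as kept if it stayed so in the same direction. The 163 are therefore no measure of how well calls held: of 13 muscle chains followed, 1 was called in the main fit. With TPM as deposited 15 values kept both, 7 lost the call and 8 turned. Of 248 values of pairs 225 kept both, 11 gained and 8 lost the call, and 4 turned.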
